A study of Mus musculus with 36 samples.

Results

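The S100 genes described here are 10 rows of a table of gene counts, chosen by their symbols: S100a1, S100a4, S100a6, S100a8, S100a9, S100a10, S100a11, S100a13, S100a14 and S100a16. The table held 55358 genes in all. Poly(A) RNA was sequenced from cultured mouse keratinocytes, the cells that build the epidermis, to ask how loss of plakophilin 4 (PKP4), a protein of cell junctions, changes gene expression. WT cells had intact Pkp4, PKP4-KO cells lacked a critical exon of Pkp4, and Rescue cells were PKP4-KO cells that had received human PKP4 fused to GFP from a lentivirus and had been selected as a stable line. Every genotype was kept for 24 h or 72 h in low calcium medium (LCM) or high calcium medium (HCM), which made 12 groups of 3 libraries and 36 libraries in all. The sample titles name every 72 h library HD and every 24 h library LD and do not explain these letters. If they name a further culture factor, it cannot be told apart from time. The cells came from newborn pups of a C57BL/6J background, WT and PKP4-KO cells from different pups, and no treatment other than the medium was given. Rescue cells differ from PKP4-KO cells by transduction and selection as well as by GFP-PKP4. The libraries of a group are named biological replicates, but the number of pups or cultures behind them is not given, so the p-values measure the spread between these libraries.

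S100 proteins are small proteins that bind calcium through a pair of EF-hands, mostly work as dimers, and expose a binding face for partner proteins once calcium is bound. Many of their genes lie in the epidermal differentiation complex, a gene cluster that also holds the genes of the cornified envelope, the protein shell of the outermost skin cells. S100A8 and S100A9 form calprotectin, which is abundant in neutrophils and is made by keratinocytes in stressed, wounded or inflamed skin. S100A10 and S100A11 bind annexins, S100A6 (calcyclin) is a protein of proliferating cells, S100A4 is known from motile and mesenchymal cells, and S100A13 takes part in the release of growth factors that lack a signal peptide. S100A14 and S100A16 are found in many epithelia, and S100A1 is known mainly from heart and skeletal muscle.

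All members lay on chromosome 3 of GRCm39, between positions 90416091 and 93474510, a span of 3.06 Mb. S100a8 was on the forward strand at chr3:90567118-90578128 and S100a9 on the reverse strand at chr3:90599931-90603071, while S100a11 at chr3:93414382-93435293 and S100a10 at chr3:93462213-93474510 lay at the other end of the cluster on the forward strand. The exons of S100a1 and S100a13 overlap on opposite strands, those of S100a13 also overlap Chtop on the opposite strand, and those of S100a4 overlap Gm42674 on the same strand. The strand setting of the counting was not given, so reads of S100a1, S100a4 and S100a13 cannot be assigned to 1 gene with certainty. The promoters of S100a8, S100a9 and S100a11, the 250 bases before the start of the canonical transcript, are shown because S100a8 and S100a9 shared most of the changes below and S100a11 moved apart from them. Each is written 5′ to 3′ along the gene's own strand, and capitals mark letters of a searched AP-1 (TGANTCA) or C/EBP (TTGCNNAA) motif on either strand.
S100a8: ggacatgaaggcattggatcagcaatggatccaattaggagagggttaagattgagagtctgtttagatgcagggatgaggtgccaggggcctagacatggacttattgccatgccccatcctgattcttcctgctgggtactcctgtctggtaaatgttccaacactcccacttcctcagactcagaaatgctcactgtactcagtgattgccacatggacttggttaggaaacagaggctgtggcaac
S100a9: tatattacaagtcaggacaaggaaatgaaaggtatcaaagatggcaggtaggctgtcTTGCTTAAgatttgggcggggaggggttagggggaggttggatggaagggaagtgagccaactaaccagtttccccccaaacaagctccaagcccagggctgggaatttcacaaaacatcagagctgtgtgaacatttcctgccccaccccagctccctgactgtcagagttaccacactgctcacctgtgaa
S100a11: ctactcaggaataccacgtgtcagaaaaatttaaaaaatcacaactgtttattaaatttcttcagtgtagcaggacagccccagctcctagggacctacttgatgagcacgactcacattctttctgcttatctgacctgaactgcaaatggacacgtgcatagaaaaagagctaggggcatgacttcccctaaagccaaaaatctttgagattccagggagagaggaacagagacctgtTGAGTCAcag

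S100a8 lay at chr3:90576035-90576284 on the forward strand, S100a9 at chr3:90603072-90603321 on the reverse strand and S100a11 at chr3:93427427-93427676 on the forward strand. S100a11 held AP-1 letters (TGAGTCA) from 10 to 4 bases before its start, and 6.19% of 21627 promoters of the same length held such letters. S100a9 held C/EBP letters (TTGCTTAA) starting 193 bases before its start, as did 9.37% of all promoters, and a GC box (GGGCGG, 36.4% of all promoters) starting 180 bases before it. A TATA box (TATAAA, 11.9%) was found in S100a4 alone, and the TEAD letters (GGAATG, 12.1%) were in the window of none of the 10. No searched motif was in the window of S100a8, S100a6, S100a10, S100a13, S100a14, S100a16 or S100a1.

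The libraries held between 13602728 and 22467187 counts. Pkp4 was lower in PKP4-KO than in WT cells in each culture condition, at 12.6% to 27.5% of the WT level, with every PKP4-KO library at 14.1 CPM or less and every WT library at 33.4 CPM or more (CPM, the count of a gene scaled to a common library size, here with TMM factors). The exact two-sided permutation test gave p = 0.1 in each condition, the smallest value that 3 against 3 libraries allow. The summed level of 9 keratinocyte markers lay between 23464 and 72961 CPM. That of 8 leukocyte markers was at most 6.62 CPM, with Cd207 at 0 in every library and Ptprc at most 0.295 CPM. Sums of the markers of fibroblasts were at most 11.6 CPM, those of melanocytes 2.09 CPM, those of endothelium 5.41 CPM and those of Schwann cells 85.6 CPM. As these are bulk samples, fewer cells of a type and less RNA per cell cannot be told apart.

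A set of 10 libraries stood apart from the other 26 in ways that the groups do not explain. In those 10, Rpl24 was at 6.13 to 13.9 CPM and Cebpb at 4.45 to 17.6 CPM, against 0 to 0.735 CPM and 69.7 to 277 CPM in the other 26. Processed pseudogenes took 3.85% to 5.68% of their counts against 2.03% to 3.94%. They were replicate 2 of WT 24 h HCM, replicate 3 of WT 72 h HCM, replicate 3 of PKP4-KO 24 h HCM, replicate 1 of PKP4-KO 24 h LCM, replicate 2 of PKP4-KO 72 h LCM, replicate 3 of Rescue 24 h LCM, replicate 2 of Rescue 72 h LCM and all 3 libraries of PKP4-KO 72 h HCM. No label names what sets them apart. In PKP4-KO 72 h HCM the library set and the group cannot be told apart from that group's own libraries. The TMM factors of this group were 0.481 to 0.546, against 0.705 to 1.39 in the other 33 libraries, so scaling raised its CPM the most.

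Most S100 genes were higher in the libraries that stood apart than in the rest of the same group. Over the 7 groups that held both kinds, S100a6 was 3.69 to 10.4 times higher (median 5.95), S100a8 3.56 to 9.45 times (7.21), S100a11 3.26 to 5.83 times (4.11) and S100a9 1.60 to 6.44 times (3.77). S100a14 was 1.57 to 3.06 times higher (2.87) and S100a10 1.47 to 1.98 times (1.56). For S100a16 the ratio was only 0.996 to 1.36 (1.21) and lay above 1 in 6 of 7 groups. S100a1 had a ratio in 3 groups only, from 0 to 0.465. S100a4 had 16 to 63 counts in each of the 10 libraries and 0 to 4 in each of the other 26. The 10 members took 0.611% to 1.36% of all counts in the libraries that stood apart and 0.233% to 0.622% in the rest. Each result is therefore given from 2 fits, with all 36 libraries and with the 26 others. For PKP4-KO 72 h HCM, which has no library among the 26, a fit of all 36 with the library set as a term takes the place of the second, its estimate of the set coming from the 7 groups with both kinds. The term takes the shift of the set to be the same in every group, although the ratios above differed between groups. Whether that shift holds in PKP4-KO 72 h HCM could not be tested, as all its libraries stood apart.

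**Figure D1:**
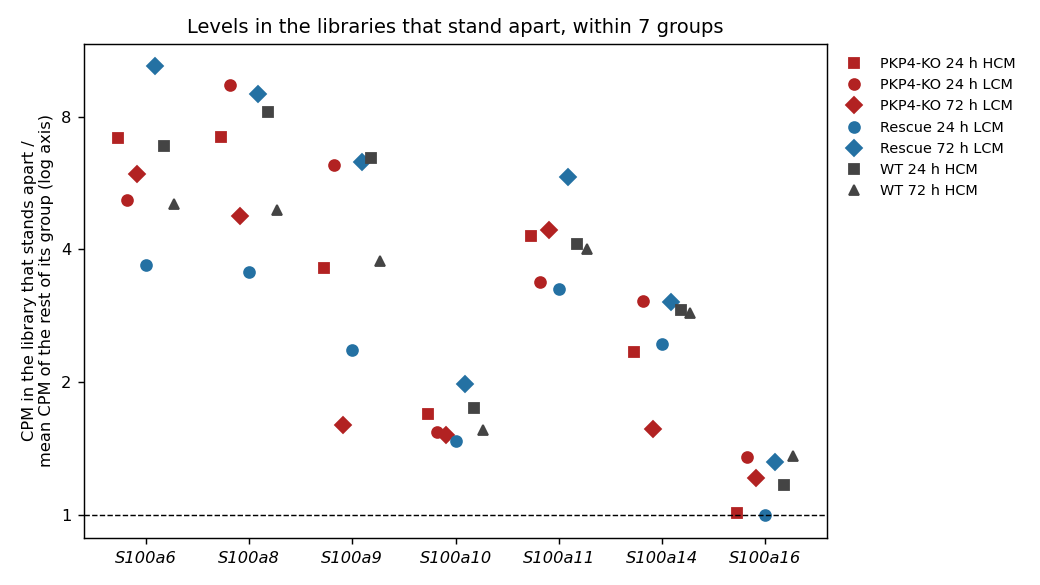
Each symbol is 1 of 7 groups that held a library standing apart, and its height is the TMM-scaled CPM of that library divided by the mean of the rest of its group, on a log axis with the ratio of 1 dashed. S100a6, S100a8 and S100a11 lie above 3 in every group, while S100a16 lies between 0.996 and 1.36.

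Per kb of gene length, S100a11 was the most abundant member in the 26 libraries, with a median of 1641 CPM per kb. S100a10 followed with 612, S100a6 with 352, S100a16 with 348, S100a14 with 218, S100a9 with 75.2 and S100a8 with 24.6 CPM per kb. S100a6 and S100a16 did not differ beyond their spread over libraries, which ran from 179 to 888 and from 145 to 766 CPM per kb. S100a9 ran from 19.9 to 867 CPM per kb and S100a8 from 7.08 to 213. S100a13 had 0 to 31 counts, S100a4 0 to 63 and S100a1 0 to 14, with S100a1 at 0 in 25 of 36 libraries. The filter on low counts kept 9 of the 10 members among 15114 genes with 36 libraries, without S100a1. It kept 7 among 15303 genes with 26 libraries, without S100a1, S100a4 and S100a13. S100a4 and S100a13 thus passed only when the libraries that stood apart were included.

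Among the 26 libraries, the order of the groups differed between genes. S100a8 ran from 8.53 ± 2.29 CPM per kb (SD, n = 3) in WT 24 h LCM to 175 ± 34.6 (n = 3) in Rescue 72 h HCM, and S100a9 from 22.6 ± 4.45 to 738 ± 127 in the same groups. WT 72 h HCM had the highest mean for S100a6, S100a10, S100a11, S100a14 and S100a16. In S100a10 its 943 ± 71.3 CPM per kb (n = 2) overlapped WT 24 h HCM at 888 ± 227 (n = 2) and WT 24 h LCM at 867 ± 231 (n = 3). In S100a11 this group reached 3549 ± 291 CPM per kb (n = 2), and the lowest mean, in PKP4-KO 24 h HCM, was 999 ± 270 (n = 2), within the spread of PKP4-KO 72 h LCM at 1049 ± 197 (n = 2) and Rescue 72 h LCM at 1209 ± 562 (n = 2). For S100a14, PKP4-KO 72 h LCM at 392 ± 115 (n = 2) and WT 72 h HCM at 398 ± 8.03 (n = 2) overlapped.

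**Figure D2:**
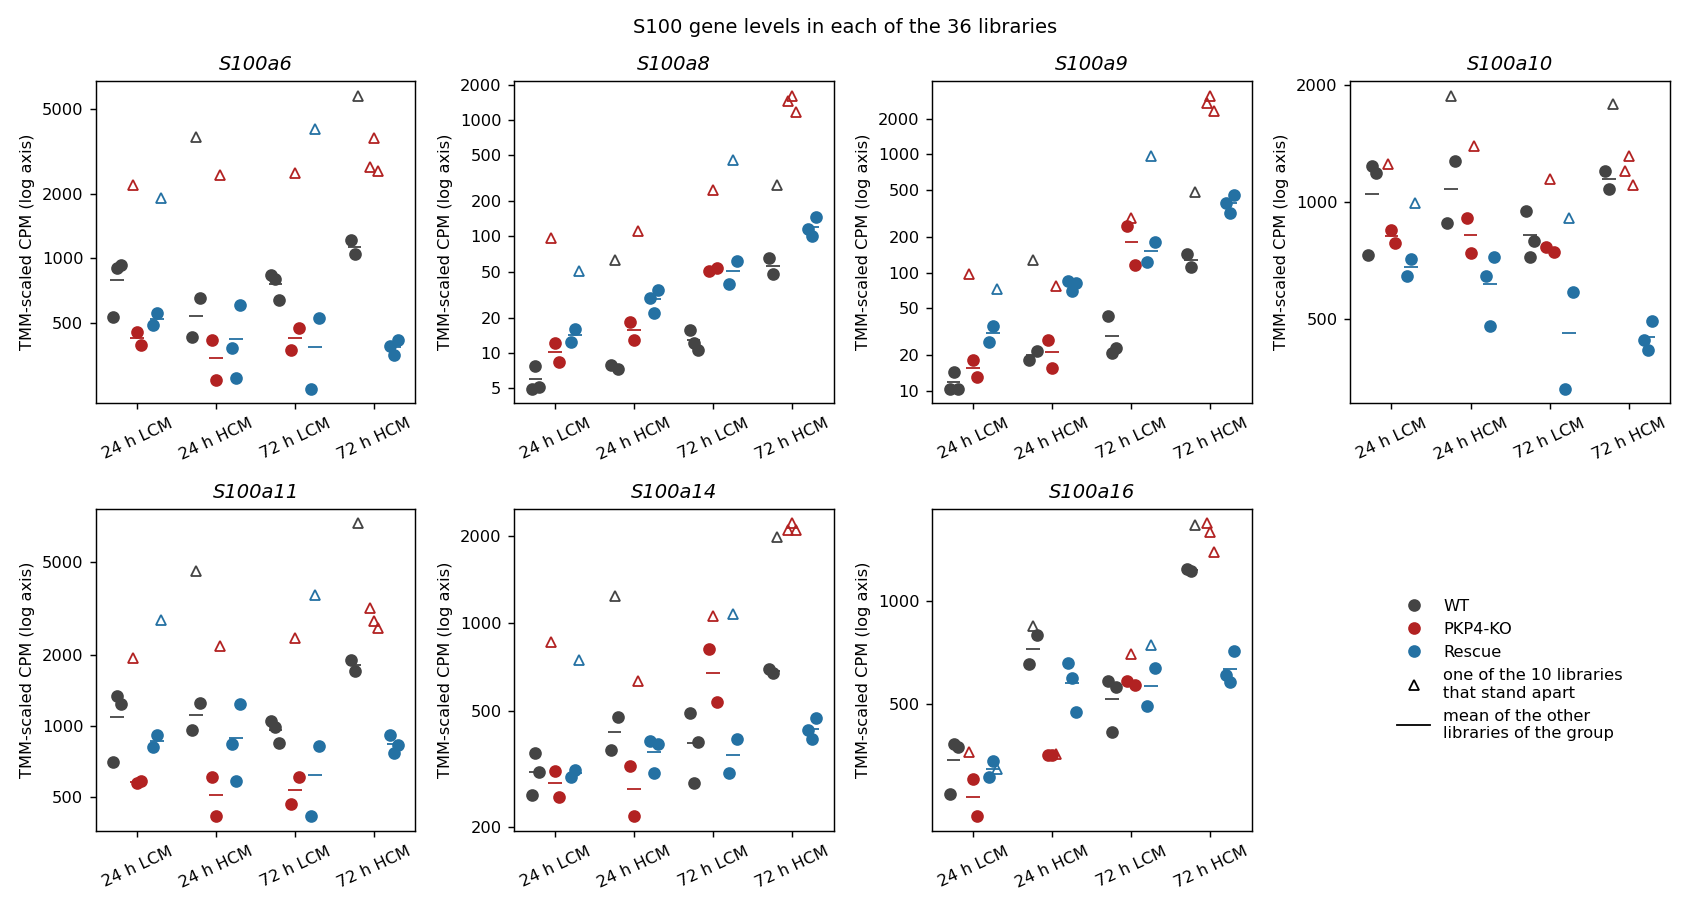
TMM-scaled CPM on a log axis for the 7 members with at least 93 counts in every library, by culture condition and genotype. Points are libraries, open triangles the 10 that stood apart, and bars the mean of the others in the group. The 3 PKP4-KO libraries at 72 h HCM have the highest S100a8 (1178 to 1622 CPM) and S100a9 (2321 to 3126 CPM) of all.

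PKP4-KO cells had more S100a8 and S100a9 than WT cells at 72 h in both media. At 24 h S100a8 was higher in LCM in both fits and in HCM with 26 libraries. At 72 h LCM, S100a8 was at 15.8, 12 and 10.6 CPM in WT and at 50.8, 249 and 53.8 CPM in PKP4-KO, with the middle PKP4-KO library standing apart. The groups did not overlap, and the log2 fold change was 3.20 ± 1.04 (SE, adjusted p = 0.0139) with 36 libraries and 2.03 ± 0.240 (adjusted p = 2.59e-07) with 26. S100a9 was at 43.0, 20.9 and 23.2 CPM in WT and at 246, 290.1 and 117 CPM in PKP4-KO. All PKP4-KO libraries again lay above all WT libraries, by 2.91 ± 0.819 (adjusted p = 0.00501) with 36 libraries and 2.65 ± 0.297 (adjusted p = 1.15e-07) with 26.

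In HCM at 72 h, S100a8 was at 64.9, 47.4 and 276 CPM in WT and at 1466, 1622 and 1178 CPM in PKP4-KO, where every library stood apart. S100a9 was at 144, 111 and 481 CPM in WT and at 2733, 3126 and 2321 CPM in PKP4-KO. With 36 libraries S100a8 was higher by 3.46 ± 1.05 (adjusted p = 0.00712) and S100a9 by 3.47 ± 0.837 (adjusted p = 0.00107). The median over all tested genes there was -0.07 with TMM factors and -0.83 without. With the library set as a term, its shift taken from other groups, the differences were 2.10 ± 0.268 (adjusted p = 7.76e-08) and 2.44 ± 0.355 (adjusted p = 8.26e-07). The 7 libraries that stood apart in the other groups reached 50.4 to 452 CPM of S100a8 and 72.2 to 962.5 CPM of S100a9, all below the 3 of PKP4-KO 72 h HCM. The summed level of 6 suprabasal markers (Krt1, Krt10, Ivl, Lor, Sprr1a, Sprr1b) was 21434 to 27579.8 CPM in PKP4-KO 72 h HCM and 9573 to 18134 CPM in WT 72 h HCM, and at 72 h LCM 3283 to 5938 against 1647 to 2006 CPM. The sum of the leukocyte markers was 1.60 to 1.90 CPM in PKP4-KO 72 h HCM and 0.176 to 0.615 CPM in WT. The part of either in the S100 result was not tested. Over all libraries Sprr1a reached 12707 CPM, Sprr1b 6333 CPM, Krt10 4702 CPM and Krt1 3839 CPM. Lor and Ivl reached 249 and 154 CPM and so weigh little in the suprabasal sum.

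At 24 h the difference in S100a8 was smaller, and S100a9 was not called. S100a8 at 24 h LCM was at 4.91, 7.75 and 5.10 CPM in WT and at 96.3, 12.1 and 8.29 CPM in PKP4-KO, the first of these standing apart. The groups did not overlap, and the difference was 2.71 ± 1.04 (adjusted p = 0.0383) with 36 libraries and 0.75 ± 0.269 (adjusted p = 0.0265) with 26. With 36 libraries 0 members were called there without PKP4-KO replicate 1 or without any 1 of the WT libraries. At 24 h HCM S100a8 was at 7.88, 62.5 and 7.34 CPM in WT and at 18.3, 12.9 and 112 CPM in PKP4-KO, so the groups overlapped through the WT library that stood apart. It was called with 26 libraries (1.03 ± 0.286, adjusted p = 0.00471) and not with 36 (0.89, adjusted p = 0.5). S100a9 differed by 0.08 (95% CI -0.64 to 0.80) at 24 h HCM and by 0.37 (-0.31 to 1.06) at 24 h LCM with 26 libraries.

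S100a6 and S100a11 were at lower levels in PKP4-KO cells than in WT cells once the library set was taken into account, and not with 36 libraries. S100a11, at 24 h LCM, was at 705, 1342 and 1237 CPM in WT and at 1957, 575 and 586 CPM in PKP4-KO. Both PKP4-KO libraries among the 26 lay below all WT libraries and the one that stood apart above them. The difference in S100a11 with 26 libraries was -1.12 ± 0.311 (adjusted p = 0.00494) at 24 h HCM, -0.94 ± 0.289 (adjusted p = 0.0106) at 24 h LCM and -0.85 ± 0.288 (adjusted p = 0.0172) at 72 h LCM. With the set as a term it was -1.38 ± 0.251 (adjusted p = 2.73e-05) at 72 h HCM, whereas the fit of 36 gave -1.08, -0.08, 0.25 and -0.35 in the same order of conditions, with adjusted p between 0.27 and 0.951. S100a6 was lower by 0.93 ± 0.307 (adjusted p = 0.0169) at 24 h LCM and by 0.85 ± 0.306 (adjusted p = 0.0253) at 72 h LCM with 26 libraries, and by 1.15 ± 0.295 (adjusted p = 0.00167) at 72 h HCM with the term. At 24 h HCM its difference of -0.65 was not called (adjusted p = 0.113). S100a10 was called only at 72 h HCM with the term (-0.61 ± 0.195, adjusted p = 0.00942) and with 26 libraries differed by -0.38 in HCM and -0.40 in LCM at 24 h and by -0.12 in LCM at 72 h.

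S100a14 and S100a16 differed at 24 h HCM. S100a16 was at 655, 848 and 795 CPM in WT and at 355.2, 355.5 and 358 CPM in PKP4-KO, without overlap and with little spread in PKP4-KO although 1 library of each genotype stood apart. It was lower by 1.10 ± 0.183 (adjusted p = 1.29e-05) with 36 libraries and by 1.03 ± 0.185 (adjusted p = 7.35e-05) with 26. In LCM S100a16 differed by -0.39 at 24 h and 0.15 at 72 h with 26 libraries, and by 0.02 at 72 h HCM with the term, and was called in none of these. S100a14 was lower at 24 h HCM by 0.64 ± 0.235 (adjusted p = 0.0287) and higher at 72 h LCM by 0.80 ± 0.211 (adjusted p = 0.00316) with 26 libraries, and was called in no condition with 36. At 24 h the median difference over the tested genes of chromosome 3 was -0.21 in HCM and -0.32 in LCM with 26 libraries, where that over all tested genes was 0.00 and -0.08.

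In all, 1 of 9 tested members was called at 24 h HCM with 36 libraries, against 42.8% of all tested genes, and 4 of 7 with 26 libraries, against 45.5%. At 24 h LCM the counts were 1 of 9 (40.2% of all genes) and 3 of 7 (43.8%), and at 72 h LCM 2 of 9 (45.1%) and 5 of 7 (49.3%). At 72 h HCM 2 of 9 were called with 36 libraries (51.8%) and 5 of 9 with the term (50.3%). The share of called members was thus below that of all genes in each condition with 36 libraries and no term. With 26 libraries the median difference over the members was -0.64 in HCM and -0.39 in LCM at 24 h and 0.15 in LCM at 72 h, against 0.00, -0.08 and 0.00 over all tested genes. S100a4 and S100a13 were called in none of the 4 conditions with 36 libraries. S100a4 had 25, 54 and 63 counts in PKP4-KO 72 h HCM, 21 counts in the WT library that stood apart and 0 in the other WT libraries of 72 h HCM.

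**Figure D3:**
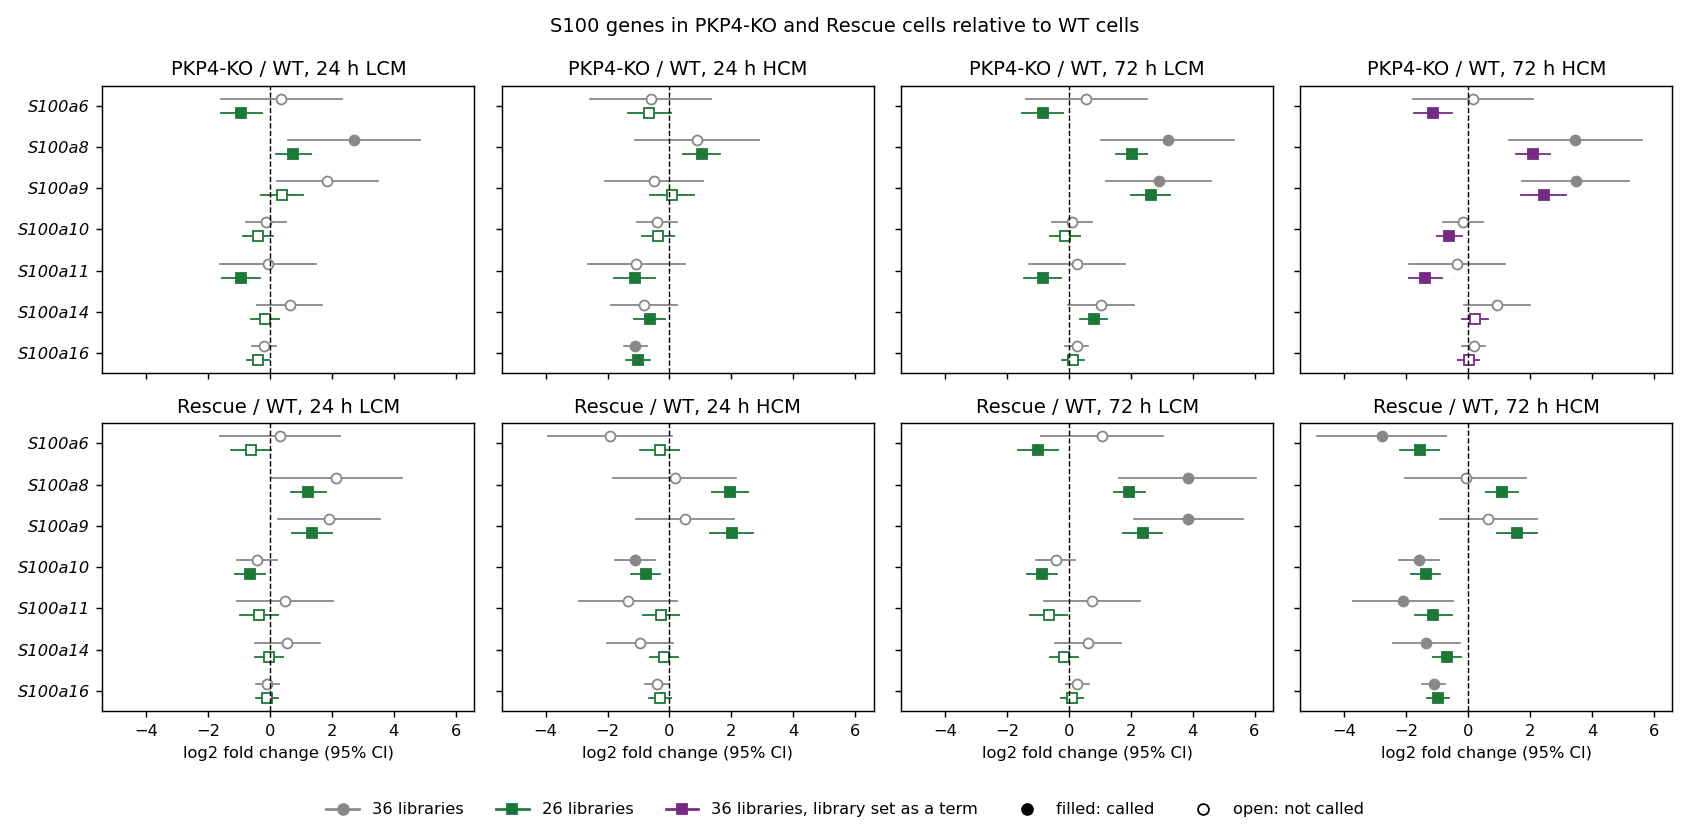
Log2 fold changes with 95% confidence intervals (x axis) of 7 members (y axis) in PKP4-KO (top) and Rescue cells (bottom) against WT cells in 4 culture conditions. Circles are the fit of 36 libraries, squares that of 26 or, for PKP4-KO at 72 h HCM, that with the library set as a term, and filled symbols passed an adjusted p of 0.05. S100a8 lies above 0 in every panel in the second fit, S100a11 below 0.

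Rescue cells also had more S100a8 and S100a9 than WT cells. Both were higher in each condition with 26 libraries, S100a8 by 1.24 ± 0.261 (adjusted p = 0.000802) at 24 h LCM, 1.96 ± 0.270 (adjusted p = 6e-06) at 24 h HCM, 1.95 ± 0.239 (adjusted p = 6.18e-07) at 72 h LCM and 1.09 ± 0.241 (adjusted p = 0.000964) at 72 h HCM. S100a9 was higher by 1.36 ± 0.309, 2.02 ± 0.324, 2.38 ± 0.295 and 1.58 ± 0.308 in the same order, with adjusted p between 7.52e-07 and 0.00165. The fit of 36 called both only at 72 h LCM, by 3.84 ± 1.07 (adjusted p = 0.00621) and 3.86 ± 0.854 (adjusted p = 0.000749). At 72 h HCM, where no Rescue library stood apart, S100a8 was at 117, 100.3 and 148 CPM in Rescue, between the 47.4 and 64.9 CPM of 2 WT libraries and the 276 CPM of the WT library that stood apart. The sign of S100a8 there turned with 36 libraries, which gave -0.09 (adjusted p = 0.952). S100a9 was at 84.5, 69.8 and 82.2 CPM in Rescue 24 h HCM, above 18.1 and 21.9 CPM in 2 WT libraries and below 129 CPM in the third, which stood apart.

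S100a10, the annexin A2 partner p11, was lower in Rescue than in WT cells. With 26 libraries it fell by 0.66 ± 0.226 (adjusted p = 0.0308) at 24 h LCM, 0.77 ± 0.220 (adjusted p = 0.01) at 24 h HCM, 0.85 ± 0.228 (adjusted p = 0.00452) at 72 h LCM and 1.37 ± 0.219 (adjusted p = 3.47e-05) at 72 h HCM. Its levels at 72 h HCM were 440.2, 414 and 491.5 CPM in Rescue and 1204, 1082 and 1784 CPM in WT, without overlap, and 36 libraries gave -1.60 ± 0.317 (adjusted p = 0.000277). The fit of 36 also called it at 24 h HCM (-1.13 ± 0.314, adjusted p = 0.00868) and not in LCM.

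At 72 h HCM every one of the 7 members tested with 26 libraries was called between Rescue and WT, with S100a8 and S100a9 higher and the other 5 lower. S100a6 was at 389, 351 and 415 CPM in Rescue and at 1214, 1048 and 5751 CPM in WT, lower by 1.57 ± 0.295 (adjusted p = 0.000194) with 26 libraries and by 2.79 ± 1.01 (adjusted p = 0.0314) with 36. S100a11 was lower by 1.13 ± 0.276 (adjusted p = 0.00245) with 26 libraries, S100a14 by 0.68 ± 0.211 (adjusted p = 0.0139) and S100a16 by 0.97 ± 0.165 (adjusted p = 6.31e-05). With 36 libraries these 3 were lower by 2.11, 1.36 and 1.12, all called. The summed keratinocyte markers were at 23464 to 24321 CPM in Rescue 72 h HCM and at 46279 to 54935 CPM in WT 72 h HCM, the leukocyte markers at 4.61 to 6.62 against 0.176 to 0.615 CPM and the fibroblast markers at 4.87 to 6.67 against 0.410 to 1.53 CPM. Their part in these differences was not tested. Over all libraries Krt14 reached 43841 CPM and Krt5 30593 CPM, Krt15 2761 CPM and each of the other keratinocyte markers at most 700 CPM. The keratinocyte sum is thus mostly Krt14 and Krt5 and does not show a fall of the markers as a set. Of the leukocyte markers, Csf1r reached 6.34 CPM over all libraries, Itgam 1.16 CPM, Ly6g 1.14 CPM and Ptprc 0.295 CPM. The high leukocyte sum is thus mostly Csf1r and not a rise of the markers as a set. With 36 libraries S100a13 was called in Rescue against WT at 24 h LCM alone, at 9, 11 and 31 counts against 5, 1 and 1. Its difference there was 2.84 ± 1.05 (adjusted p = 0.0475), and 0 members were called without Rescue replicate 3, which had the 31 counts and stood apart, without WT replicate 2 or without WT replicate 3. As S100a13 passed the filter only when the libraries that stood apart were included, nothing is read from this call.

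The members called in Rescue against WT numbered 1 of 9 at 24 h HCM with 36 libraries, where 23.2% of all genes were called, and 3 of 7 with 26 (29.6%). At 24 h LCM they were 1 of 9 (24.8%) and 3 of 7 (30.5%), at 72 h LCM 2 of 9 (32.4%) and 4 of 7 (38.9%), and at 72 h HCM 5 of 9 (36.2%) and 7 of 7 (38.2%). The 5 of 9 fell to 2 without any 1 of the Rescue libraries or without WT replicate 3, and to 3 without TMM factors.

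Against PKP4-KO cells, Rescue cells had more of several members at 24 h HCM and less at 72 h HCM. At 24 h HCM S100a16 was at 660.0, 594 and 473 CPM in Rescue against 355.2, 355.5 and 358 CPM in PKP4-KO. All Rescue libraries lay higher, by 0.69 ± 0.182 (adjusted p = 0.00286) with 36 libraries and 0.73 ± 0.171 (adjusted p = 0.00123) with 26. With 26 libraries S100a8 (0.93 ± 0.250, adjusted p = 0.00391), S100a9 (1.94 ± 0.322, adjusted p = 2.6e-05) and S100a11 (0.84 ± 0.288, adjusted p = 0.0199) were higher as well. With 36 libraries these 3 were not called, and S100a8 (-0.72, adjusted p = 0.583) and S100a11 (-0.27, adjusted p = 0.809) had the opposite sign. In LCM S100a9 was higher at 24 h (0.98 ± 0.341, adjusted p = 0.0266), and at 72 h S100a10 (-0.73 ± 0.245, adjusted p = 0.0162) and S100a14 (-0.95 ± 0.236, adjusted p = 0.00197) were lower, all with 26 libraries. The fit of 36 called none of these 3.

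In HCM at 72 h Rescue was compared with a PKP4-KO group whose libraries all stood apart. S100a14 was at 432, 401 and 473 CPM in Rescue and at 2083, 2202 and 2094 CPM in PKP4-KO, and S100a16 at 607, 580.1 and 713 CPM against 1686, 1589 and 1393 CPM. These CPM are TMM-scaled, and the low factors of PKP4-KO 72 h HCM raise every CPM of that group. With 36 libraries the median over all tested genes was 0.20 with TMM factors and 1.37 without, so the size of these gaps depends on the scaling. With the library set as a term S100a8 was lower by 0.86 ± 0.277 (adjusted p = 0.00882), S100a10 by 0.71 ± 0.210 (adjusted p = 0.00426), S100a14 by 0.93 ± 0.225 (adjusted p = 0.000738) and S100a16 by 1.04 ± 0.174 (adjusted p = 7.01e-06). S100a9 (-0.81, adjusted p = 0.0584), S100a6 (-0.32) and S100a11 (0.29) were not called. Without the term 8 of 9 were called, with differences from -6.03 in S100a4 to -1.30 in S100a16 among these 8. S100a4 passed the filter only through the libraries that stood apart, and S100a13 was the member not called. S100a4 had 25, 54 and 63 counts in PKP4-KO and 2, 4 and 0 in Rescue there, and with the term its estimate was 1.32 (adjusted p = 0.117).

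Rescue against PKP4-KO gave 1 of 9 members called at 24 h HCM with 36 libraries (40.8% of all genes) and 4 of 7 with 26 (45%). At 24 h LCM it gave 0 of 9 (33.7%), with none at an unadjusted p below 0.05, and 1 of 7 (36.3%). At 72 h LCM it gave 0 of 9 (41.6%), again with none at an unadjusted p below 0.05, and 2 of 7 (49.9%). At 72 h HCM 8 of 9 were called without the term (66.7%) and 4 of 9 with it (57.3%). PKP4-KO libraries enter both this comparison and that with WT, and WT libraries both comparisons with WT, so these results share samples.

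S100a16 was higher in HCM than in LCM in 4 of the 6 comparisons of the media with 36 libraries. In WT cells at 24 h it was at 273, 383 and 374 CPM in LCM and at 655, 848 and 795 CPM in HCM. The groups did not overlap, and HCM was higher by 1.16 ± 0.183 (adjusted p = 3.57e-05) with 36 libraries and 1.06 ± 0.165 (adjusted p = 4.85e-05) with 26. It was the only member called at that time in WT cells, in either fit (14.2% of all genes with 36 libraries, 18% with 26). In Rescue cells at 24 h S100a16 was higher in HCM by 0.83 ± 0.182 (adjusted p = 0.00202) and 0.87 ± 0.172 (adjusted p = 0.000886). In PKP4-KO cells at 24 h it differed by 0.25 (95% CI -0.12 to 0.62) and 0.42 (0.03 to 0.81) and was not called.

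At 72 h S100a8 and S100a9 were higher in HCM in all genotypes. WT cells had 64.9, 47.4 and 276 CPM of S100a8 in HCM and 15.8, 12 and 10.6 CPM in LCM, a difference of 2.13 ± 0.240 (adjusted p = 4.04e-07) with 26 libraries and 3.33 ± 1.05 (adjusted p = 0.0218) with 36. S100a9 differed by 2.13 ± 0.295 (adjusted p = 7.42e-06) and 3.08 ± 0.825 (adjusted p = 0.0072). S100a14 (0.81 ± 0.211, adjusted p = 0.00604) and S100a16 (1.24 ± 0.165, adjusted p = 4.38e-06) were called in both fits and S100a11 (0.90 ± 0.277, adjusted p = 0.0182) with 26 libraries alone. In PKP4-KO cells at 72 h the differences with the library set as a term were 2.21 ± 0.269 (adjusted p = 9.5e-08) for S100a8, 2.23 ± 0.363 (adjusted p = 1.29e-05) for S100a9 and 1.17 ± 0.163 (adjusted p = 1.08e-06) for S100a16. In Rescue cells at 72 h the fit of 26 gave 1.27 ± 0.242 (adjusted p = 0.00035) for S100a8 and 1.33 ± 0.304 (adjusted p = 0.00192) for S100a9. The fit of 36 gave -0.60 and -0.13 there, since the Rescue LCM library that stood apart had 452 and 962.5 CPM against at most 61.5 and 181 CPM in the other 2. S100a6 and S100a10 were called in no comparison of the media, in either fit.

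Of the 9 tested members, HCM against LCM called 4 in WT cells at 72 h with 36 libraries (21.4% of all genes) and 5 of 7 with 26 (25%). In PKP4-KO cells it called 0 of 9 at 24 h with 36 libraries (2.83%) and 0 of 7 with 26 (3.95%), where 0 and 2 members had an unadjusted p below 0.05 in the edgeR test, and at 72 h 4 of 9 (32.6%) and, with the term, 3 of 9 (30.9%). In Rescue cells it called 1 of 9 (12%) and 3 of 7 (15.7%) at 24 h, and 0 of 9 (24.9%, 1 at an unadjusted p below 0.05) and 2 of 7 (28.3%) at 72 h. The sum of the suprabasal markers moved with S100a8 and S100a9 here: it was 1647 to 2006 CPM in WT 72 h LCM and 9573 to 18134 CPM in WT 72 h HCM. Their part in the S100 result was not tested.

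S100a8 and S100a9 were higher after the longer culture. From 24 h to 72 h in HCM, S100a9 in PKP4-KO cells went from 26.7, 15.6 and 76.7 CPM to 2733, 3126 and 2321 CPM, with no overlap. The difference was 6.11 ± 0.949 (adjusted p = 4.87e-06) with 36 libraries and 5.05 ± 0.393 (adjusted p = 1.37e-12) with the term, and for S100a8 4.90 ± 1.12 (adjusted p = 0.000572) and 3.76 ± 0.280 (adjusted p = 5e-13). In WT cells in HCM the fit of 26 gave 2.90 ± 0.289 (adjusted p = 1.52e-07) for S100a8 and 2.69 ± 0.348 (adjusted p = 6.93e-06) for S100a9, and in Rescue cells 2.04 ± 0.217 (adjusted p = 1.24e-07) and 2.25 ± 0.273 (adjusted p = 8.1e-07). The same held in LCM: S100a9 was higher at 72 h by 3.58 ± 0.361 in PKP4-KO, 2.33 ± 0.339 in Rescue and 1.31 ± 0.286 in WT cells, and S100a8 by 2.40 ± 0.280, 1.84 ± 0.270 and 1.12 ± 0.242, with adjusted p of 0.00215 or less, all with 26 libraries. The fit of 36 called neither gene in WT cells in either medium, with adjusted p between 0.0625 and 0.57. It called S100a9 in PKP4-KO LCM (2.35, adjusted p = 0.0294), Rescue HCM (2.29, adjusted p = 0.0351) and Rescue LCM (3.25, adjusted p = 0.00876), and S100a8 in none of these 3. The sum of the suprabasal markers moved as well, from 593 to 857 CPM at 24 h to 21434 to 27579.8 CPM at 72 h in PKP4-KO HCM. In WT HCM it went from 2536 to 4609 CPM to 9573 to 18134 CPM, and its part was not tested.

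S100a16 was also higher at 72 h, except in Rescue cells in HCM, where it differed by 0.11 (95% CI -0.21 to 0.43). With 26 libraries it was higher by 0.78 ± 0.184 (adjusted p = 0.0037) in WT HCM, 0.60 ± 0.150 (adjusted p = 0.00632) in WT LCM, 1.14 ± 0.185 (adjusted p = 5.05e-05) in PKP4-KO LCM and 0.82 ± 0.184 (adjusted p = 0.00377) in Rescue LCM. In PKP4-KO HCM it went from 355.2, 355.5 and 358 CPM to 1686, 1589 and 1393 CPM, by 1.95 ± 0.167 (adjusted p = 1.42e-11) with the term. The median over all tested genes in that comparison was -0.09 with TMM factors and -1.16 without, with 36 libraries, so the size of this rise depends on the scaling. S100a14 was higher at 72 h in PKP4-KO cells, by 1.65 ± 0.213 (adjusted p = 8.35e-08) in HCM with the term and 1.30 ± 0.238 (adjusted p = 0.000193) in LCM with 26 libraries, and in WT cells in HCM by 0.72 ± 0.235 (adjusted p = 0.0305). S100a6 was called with time in WT HCM alone (1.09 ± 0.330, adjusted p = 0.0198, 26 libraries). S100a10 and S100a11 were called in none of the 6 comparisons of time, with 36 libraries, with 26 or, for PKP4-KO HCM, with the term.

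Time called 1 of 9 members in WT HCM with 36 libraries (17.9% of all genes) and 5 of 7 with 26 (22.7%), and 1 of 9 in WT LCM (9.96%) and 3 of 7 (19.5%). In PKP4-KO cells it called 4 of 9 in HCM without (55.8%) and with the term (53%), and 2 of 9 (26.2%) and 4 of 7 (33.7%) in LCM. In Rescue cells the counts were 1 of 9 (24.3%) and 2 of 7 (36.8%) in HCM and 2 of 9 (9.81%) and 3 of 7 (9.7%) in LCM.

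**Figure D4:**
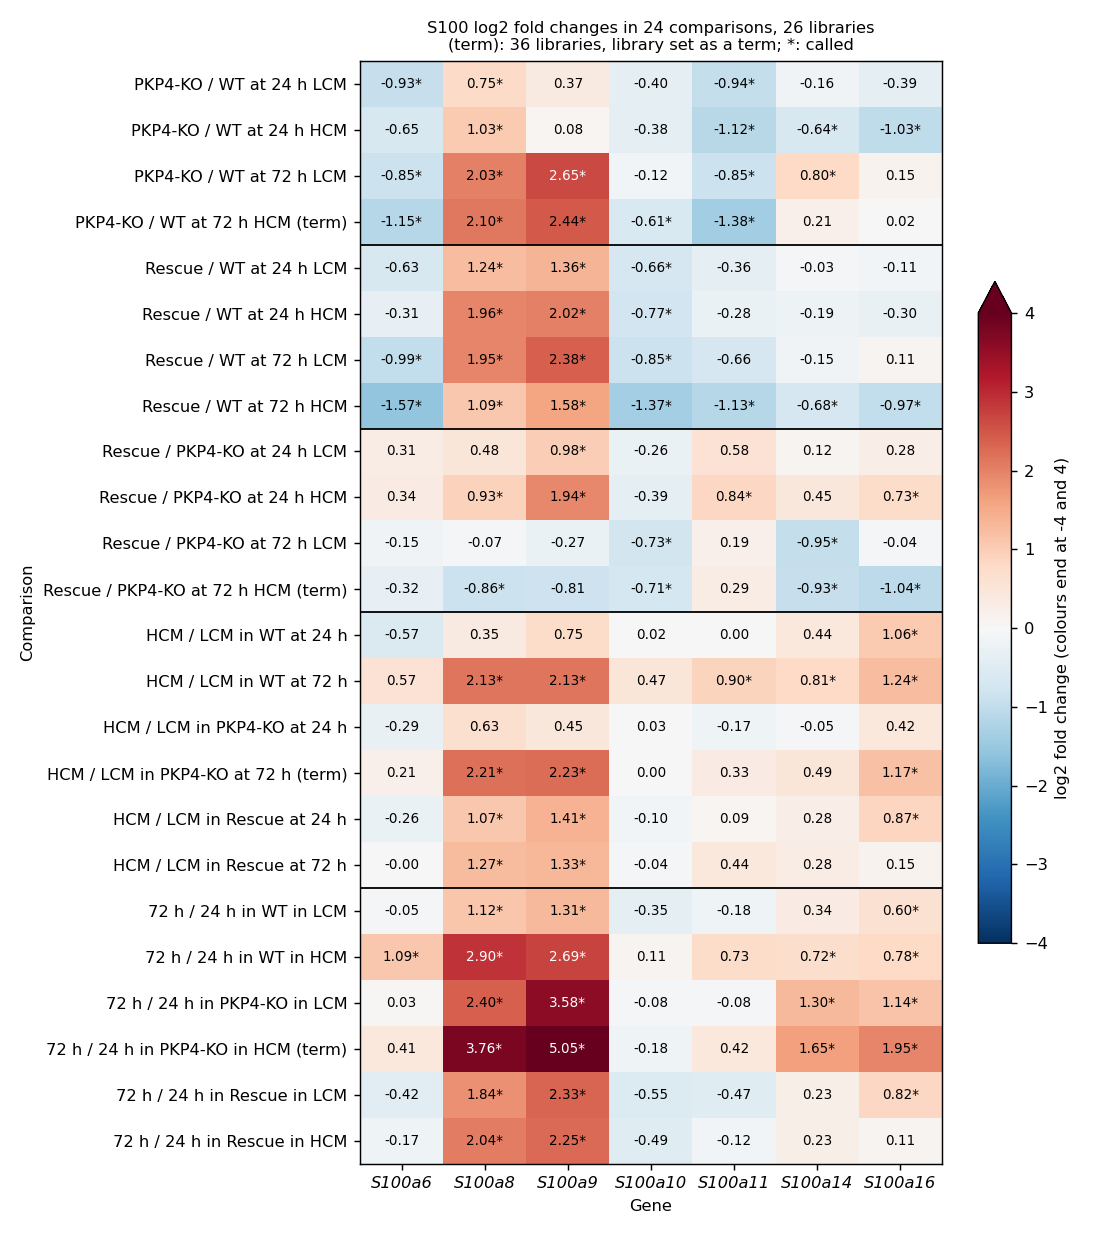
Log2 fold changes of 7 members (columns) in 24 comparisons (rows) with 26 libraries, or with 36 and the library set as a term where the row says so. Red is higher and blue lower in the group named first, and an asterisk marks an adjusted p below 0.05. The S100a8 and S100a9 columns are red in most rows, up to 5.05, and the S100a10 column has no value above 0.47.

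Whether the response to calcium differed between genotypes was tested as the difference of the HCM against LCM effects. For S100a16 at 72 h the effect was smaller in Rescue than in WT cells, by 1.39 ± 0.257 (adjusted p = 0.000402) with 36 libraries and by 1.09 ± 0.234 (adjusted p = 0.00262) with 26. At 24 h it was smaller in PKP4-KO than in WT cells by 0.91 ± 0.256 (adjusted p = 0.039) with 36 libraries, and the 26 gave -0.64 (adjusted p = 0.172). Leaving out 1 library at a time kept a call there in 3 of 12 fits. S100a9 at 72 h had a smaller effect in Rescue than in WT with 36 libraries (-3.21 ± 1.10, adjusted p = 0.0488), and 26 libraries gave -0.81 (95% CI -1.69 to 0.07). Between PKP4-KO and WT at 72 h no member was called with 36 libraries.

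These differences called 1 of 9 members for PKP4-KO against WT at 24 h with 36 libraries (4.02% of all genes) and 0 of 7 with 26 (4.46%, 1 at an unadjusted p below 0.05). At 72 h they called 0 of 9 (5.74%, none at an unadjusted p below 0.05) and, with the term, 1 of 9 (9.91%), S100a4, which passed the filter only through the libraries that stood apart, so nothing is read from its call. For Rescue against WT they called 0 of 9 at 24 h (0.0662%, 2 at an unadjusted p below 0.05) and 0 of 7 (0.307%, none at an unadjusted p below 0.05), and at 72 h 2 of 9 (14.6%) and 1 of 7 (12.2%).

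S100a8 and S100a9 followed each other across the groups. Over the 11 group means of the 26 libraries on the log2 scale, Pearson's r was 0.981 and Spearman's rho 0.936. S100a6 and S100a11 gave r = 0.863 and S100a14 and S100a16 r = 0.832, whereas S100a8 and S100a10 gave -0.595. These are descriptions without a p, as the group means share genotypes and media. The libraries that stood apart had 0.682 to 2.13 reads of S100a9 per read of S100a8 and the rest 1.21 to 4.83.

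**Figure D5:**
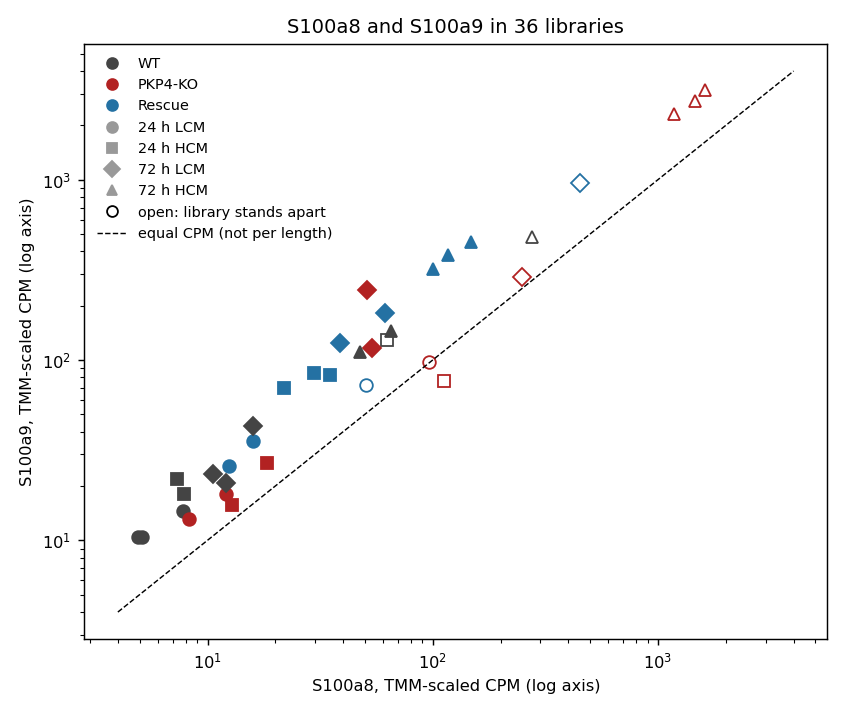
TMM-scaled CPM of S100a8 (x axis) and S100a9 (y axis) in 36 libraries, both on log axes, with colours for genotype, shapes for culture condition and open symbols for the libraries that stood apart. The dashed line marks equal CPM, and the ratio ran from 0.682 to 4.83 reads of S100a9 per read of S100a8.

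The genes with the most similar pattern over the 12 group means, among 12553 protein-coding genes, were Dkkl1 (r = 0.963), Rnase1 (0.961) and Klk5 (0.953) for S100a8, and Rusc1 (0.977), Dkkl1 (0.975) and Klk13 (0.971) for S100a9. Klk5 and Klk13 encode epidermal kallikreins, proteases of the outer skin. For S100a14 they were Krtdap (0.97), Psenen (0.967) and Hsbp1 (0.966), and for S100a16 Rab11a (0.971), Krt16 (0.961), a stress keratin, and Cltb (0.956). The list for S100a6 was H4c4 (0.966), H4c2 (0.96) and Ubl5 (0.94), that for S100a10 Pbdc1 (0.953), Triap1 (0.924) and Lage3 (0.921), and that for S100a11 Pfdn1 (0.919), Alox8 (0.908) and Ppp1ca (0.901). S100a13 was most like Rtkn (0.946), Robo3 (0.93) and Gstk1 (0.909). It had 0 to 31 counts and passed the filter only when the libraries that stood apart were included, so nothing is read from its list. S100a4 was most like Rpl24 (0.956), a gene used here to find the libraries that stood apart, and over the 11 group means without them that r was 0.00575. Over those 11, Dkkl1 had r = 0.945 with S100a8 and 0.948 with S100a9, and Rab11a 0.952 with S100a16, while Rnase1 fell to 0.832 with S100a8, Psenen to 0.844 with S100a14, and Pfdn1 to 0.741 and Ppp1ca to 0.759 with S100a11. Ranked over the 11, the 3 nearest were all other genes for S100a6, S100a8, S100a9, S100a11 and S100a14.

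Of 8 other S100 genes listed, 4 were tested: S100a2, S100a3, S100a7a and S100b. S100a7a, the mouse relative of psoriasin, was lower in PKP4-KO than in WT at 24 h HCM by 3.05 (adjusted p = 5.64e-07) with 36 libraries and 3.13 (adjusted p = 7.15e-07) with 26, at 1.32 ± 0.651 CPM against 10.6 ± 3.92 CPM (SD, n = 3). At 72 h LCM it was higher by 1.30 (adjusted p = 0.0049) and 1.18 (adjusted p = 0.00199). S100a7a was also higher in HCM than in LCM at 72 h, by 4.00 in WT cells, 2.62 in PKP4-KO and 1.97 in Rescue with 36 libraries, with adjusted p of 0.000127 or less. S100a3, a gene of hair cuticle cells, was lower in Rescue than in PKP4-KO in all 4 conditions, by 0.998 to 1.57 with 36 libraries, and was called in none of the comparisons of PKP4-KO with WT. S100a2 was lower in PKP4-KO at 24 h HCM by 3.27 (adjusted p = 0.00807) with 36 libraries and by 2.99 (adjusted p = 0.00417) with 26, and at 24 h LCM by 2.56 (adjusted p = 0.0113) with 26 and by 2.84 (adjusted p = 1e-04) with the term. The term also called S100a2 lower at 72 h LCM, by 1.68 (adjusted p = 0.0194), and at 72 h HCM, by 2.06 (adjusted p = 0.000805), where 36 libraries gave -0.68 and -1.06 without a call. Levels of S100a2 were low, at 0.499 ± 0.530 CPM in PKP4-KO and 4.55 ± 5.09 CPM in WT at 24 h HCM (SD, n = 3). They were 0.336 and 1.14 CPM at 24 h LCM and 0.364 and 0.563 CPM at 72 h LCM, so the size of these changes is uncertain. S100b was called in no genotype comparison. In PKP4-KO against WT the 4 tested genes gave 0 higher and 2 lower at 24 h HCM, 0 and 0 at 24 h LCM, 1 and 0 at 72 h LCM and 0 and 0 at 72 h HCM with 36 libraries, with medians of -3.16, -0.94, 0.86 and -0.04.

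The fused-type genes of the same cluster encode an S100 domain joined to long repeats, as in profilaggrin (Flg) and cornulin (Crnn). Of 7 listed, 6 were tested with 36 libraries, and in PKP4-KO against WT 5 were higher and none lower at 72 h LCM, with a median of 3.74 over the 6, where 45.1% of all genes were called. Crnn was higher there by 5.69 ± 0.637 and Flg by 7.49 ± 0.964, and at 72 h HCM by 6.87 and 3.62. Levels in WT were near 0, so the size of these changes is uncertain. At 72 h LCM Crnn was at 0.135 CPM in WT and 7.30 CPM in PKP4-KO, and Flg at 0.0299 and 6.59 CPM. At 72 h HCM Crnn was at 0.186 and 22.4 CPM, and Flg at 0.539 and 7.03 CPM. Both genes were picked by their calls in these same comparisons, then by size of change. At 72 h HCM 3 of the 6 were higher and none lower (51.8% of all genes called), and at 24 h none was called in either medium, all with 36 libraries. With 26 libraries 1 of 5 tested was higher and 0 lower at 24 h HCM (45.5% of all genes called) and likewise at 24 h LCM (43.8%). At 72 h LCM that fit called 5 of 5 higher (49.3%). Over all tested genes the median at 72 h LCM was 0.02.

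The list of 17 binding partners and receptors moved in both directions. Of 14 tested in PKP4-KO against WT with 36 libraries, 4 were higher and 5 lower at 24 h HCM (42.8% of all genes called), 5 and 6 at 24 h LCM (40.2%), 6 and 3 at 72 h LCM (45.1%) and 3 and 6 at 72 h HCM (51.8%). Anxa6, an annexin, was higher in all 4 conditions, by 1.85, 2.13, 1.62 and 1.20 in that order. Ahnak, a large protein that binds the S100A10 and annexin A2 complex, was lower in all 4, by 1.77, 1.30, 1.51 and 1.50, and Anxa1, a partner of S100A11, by 2.25, 1.56, 1.11 and 0.94. Tlr4, a receptor of S100A8 and S100A9, was lower by 2.08 (adjusted p = 0.000878) at 24 h HCM, 1.26 (adjusted p = 0.0471) at 24 h LCM and 2.16 (adjusted p = 0.00112) at 72 h HCM. At 72 h LCM it differed by -1.24 (adjusted p = 0.0648). Levels of Tlr4 were low, at 0.689 ± 0.558 CPM in PKP4-KO and 1.72 ± 0.539 CPM in WT at 24 h LCM (SD, n = 3). At 24 h HCM they were 1.10 and 4.63 CPM, so the size of its changes is uncertain. These 4 genes were picked by the number of these conditions in which each was called the same way, then by size of change. Their agreement across conditions is thus no separate result.

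Genes within 2 Mb of the members were described by their median, without the members. From 24 h to 72 h in PKP4-KO cells in HCM the 165 tested neighbours had a median log2 fold change of 1.20 with 36 libraries and 1.02 with the term, and 117 and 119 of them were called, against 55.8% and 53% of all genes. The tested genes of chromosome 3 had medians of 0.00 and 0.10. In PKP4-KO against WT the median of the neighbours lay between -0.27 at 24 h HCM and 0.13 at 72 h LCM with 36 libraries.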

How the data were processed

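Poly(A) RNA of 36 libraries (12 groups of 3) was sequenced. Per the labels and the study's methods, the authors aligned reads with HISAT2 2.1.0 to mm39 with GFP-PKP4 added, removed secondary alignments with SAMtools 1.10, and deposited raw counts per gene from featureCounts 2.0.0 with Ensembl release 105 annotation. Reads shared by similar genes could be lost or split at this step. Here, counts were filtered with filterByExpr, scaled by TMM and fitted in edgeR 4.0.16 (R 4.3.3) by the quasi-likelihood test over all groups, with Benjamini-Hochberg adjustment over all tested genes. A gene was called at an adjusted p below 0.05. In 24 comparisons of 2 groups and 4 differences of effects, log2 fold changes used a prior count of 0.125, and values are given as estimate ± SE. The 10 libraries that stood apart were defined after seeing the data, by Rpl24 above 3 CPM and Cebpb below 40 CPM. The fit was tested on simulated data. Alternatives were DESeq2 1.42.0, other scalings and filters, a replicate block and leaving out libraries.

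The members, lists and rules were chosen with earlier results of these data known. All members are named, and for each the 3 genes most similar over group means. Depth was 13602728 to 22467187 counts, and intervals cover the spread between libraries. Positions came from GENCODE annotation on GRCm39, and promoters from the GRCm39 genome sequence at those positions.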

Additional observations from a re-analysis of the deposited data

Results flagged for a closer look

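The response to calcium differed between genotypes in 3 cases by a test of the difference itself, in the edgeR fit of 36 libraries, with p adjusted by the Benjamini-Hochberg method. The HCM against LCM effect on S100a16 differed by -0.91 between PKP4-KO and WT at 24 h (adjusted p = 0.039) and by -1.39 between Rescue and WT at 72 h (adjusted p = 0.000402). That on S100a9 differed by -3.21 between Rescue and WT at 72 h (adjusted p = 0.0488). With the 26 libraries that did not stand apart, the S100a16 difference at 72 h was called (-1.09, adjusted p = 0.00262), and S100a16 at 24 h (-0.64, adjusted p = 0.172) and S100a9 (-0.81, adjusted p = 0.237) were not.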

How the results depend on the processing

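Leaving out the 10 libraries that stood apart, an alternative chosen after seeing the data, changed 17 of 23 counts of called members by over 1.5 times, to 4 (from 1) for PKP4-KO against WT at 24 h HCM, 3 (from 1) for PKP4-KO against WT at 24 h LCM, 5 (from 2) for PKP4-KO against WT at 72 h LCM, 4 (from 1) for Rescue against PKP4-KO at 24 h HCM, 1 (from 0) for Rescue against PKP4-KO at 24 h LCM, 2 (from 0) for Rescue against PKP4-KO at 72 h LCM, 3 (from 1) for Rescue against WT at 24 h HCM, 3 (from 1) for Rescue against WT at 24 h LCM, 4 (from 2) for Rescue against WT at 72 h LCM, 3 (from 1) for HCM against LCM in Rescue at 24 h, 2 (from 0) for HCM against LCM in Rescue at 72 h, 5 (from 1) for 72 h against 24 h in WT in HCM, 3 (from 1) for 72 h against 24 h in WT in LCM, 4 (from 2) for 72 h against 24 h in PKP4-KO in LCM, 2 (from 1) for 72 h against 24 h in Rescue in HCM, 0 (from 1) for the difference of the HCM effect between PKP4-KO and WT at 24 h, 1 (from 2) for the difference of the HCM effect between Rescue and WT at 72 h. It turned the sign of 9 log2 fold changes, to -0.93 for S100a6 (PKP4-KO against WT at 24 h LCM), -0.85 for S100a6 (PKP4-KO against WT at 72 h LCM), -0.85 for S100a11 (PKP4-KO against WT at 72 h LCM), 0.93 for S100a8 (Rescue against PKP4-KO at 24 h HCM), 0.84 for S100a11 (Rescue against PKP4-KO at 24 h HCM), 1.09 for S100a8 (Rescue against WT at 72 h HCM), -0.99 for S100a6 (Rescue against WT at 72 h LCM), 1.27 for S100a8 (HCM against LCM in Rescue at 72 h), 1.33 for S100a9 (HCM against LCM in Rescue at 72 h).

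The library set as a term, also chosen after seeing the data, changed 20 of 28 counts, to 4 (from 1) for PKP4-KO against WT at 24 h HCM, 5 (from 2) for PKP4-KO against WT at 72 h HCM, 3 (from 1) for PKP4-KO against WT at 24 h LCM, 6 (from 2) for PKP4-KO against WT at 72 h LCM, 6 (from 1) for Rescue against PKP4-KO at 24 h HCM, 4 (from 8) for Rescue against PKP4-KO at 72 h HCM, 1 (from 0) for Rescue against PKP4-KO at 24 h LCM, 2 (from 0) for Rescue against PKP4-KO at 72 h LCM, 4 (from 1) for Rescue against WT at 24 h HCM, 8 (from 5) for Rescue against WT at 72 h HCM, 4 (from 1) for Rescue against WT at 24 h LCM, 4 (from 2) for Rescue against WT at 72 h LCM, 2 (from 1) for HCM against LCM in WT at 24 h, 3 (from 1) for HCM against LCM in Rescue at 24 h, 3 (from 0) for HCM against LCM in Rescue at 72 h, 7 (from 1) for 72 h against 24 h in WT in HCM, 3 (from 1) for 72 h against 24 h in WT in LCM, 4 (from 2) for 72 h against 24 h in PKP4-KO in LCM, 3 (from 1) for 72 h against 24 h in Rescue in HCM, 1 (from 0) for the difference of the HCM effect between PKP4-KO and WT at 72 h. It turned 12 log2 fold changes, to -1.15 for S100a6 (PKP4-KO against WT at 72 h HCM), -0.98 for S100a6 (PKP4-KO against WT at 24 h LCM), -0.86 for S100a6 (PKP4-KO against WT at 72 h LCM), -0.81 for S100a11 (PKP4-KO against WT at 72 h LCM), 0.83 for S100a8 (Rescue against PKP4-KO at 24 h HCM), 0.78 for S100a11 (Rescue against PKP4-KO at 24 h HCM), 1.32 for S100a4 (Rescue against PKP4-KO at 72 h HCM), 0.29 for S100a11 (Rescue against PKP4-KO at 72 h HCM), 1.24 for S100a8 (Rescue against WT at 72 h HCM), -0.68 for S100a6 (Rescue against WT at 72 h LCM), 1.09 for S100a8 (HCM against LCM in Rescue at 72 h), 1.09 for S100a9 (HCM against LCM in Rescue at 72 h).

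Library sizes without TMM factors moved the median of all genes by up to 1.17, in Rescue against PKP4-KO at 72 h HCM, changed 11 counts, to 4 (from 2) for PKP4-KO against WT at 72 h HCM, 2 (from 1) for PKP4-KO against WT at 24 h LCM, 2 (from 1) for Rescue against PKP4-KO at 24 h HCM, 4 (from 8) for Rescue against PKP4-KO at 72 h HCM, 1 (from 0) for Rescue against PKP4-KO at 72 h LCM, 2 (from 1) for Rescue against WT at 24 h HCM, 3 (from 5) for Rescue against WT at 72 h HCM, 0 (from 1) for Rescue against WT at 24 h LCM, 0 (from 1) for 72 h against 24 h in WT in LCM, 0 (from 1) for the difference of the HCM effect between PKP4-KO and WT at 24 h, 1 (from 2) for the difference of the HCM effect between Rescue and WT at 72 h, and turned 4 values, to -0.46 for S100a6 (PKP4-KO against WT at 72 h HCM), -0.23 for S100a11 (PKP4-KO against WT at 72 h LCM), 0.49 for S100a8 (Rescue against WT at 72 h HCM), 0.17 for S100a9 (HCM against LCM in Rescue at 72 h).

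A fit of only the groups compared gave 0 (from 1) for PKP4-KO against WT at 24 h LCM, 2 (from 1) for Rescue against WT at 24 h LCM, 0 (from 1) for 72 h against 24 h in WT in HCM, 3 (from 1) for 72 h against 24 h in WT in LCM, 1 (from 2) for 72 h against 24 h in PKP4-KO in LCM, 3 (from 1) for 72 h against 24 h in Rescue in HCM, 1 (from 2) for 72 h against 24 h in Rescue in LCM, 0 (from 1) for the difference of the HCM effect between PKP4-KO and WT at 24 h, 1 (from 2) for the difference of the HCM effect between Rescue and WT at 72 h. No filter on low counts gave 2 (from 1) for PKP4-KO against WT at 24 h LCM, 2 (from 1) for HCM against LCM in WT at 24 h, 2 (from 1) for 72 h against 24 h in WT in HCM, 0 (from 1) for 72 h against 24 h in WT in LCM, 0 (from 1) for the difference of the HCM effect between PKP4-KO and WT at 24 h, 6 (from 2) for the difference of the HCM effect between Rescue and WT at 72 h. DESeq2 gave 2 (from 1) for Rescue against WT at 24 h HCM, 2 (from 1) for HCM against LCM in WT at 24 h, 2 (from 1) for 72 h against 24 h in WT in HCM, 6 (from 2) for the difference of the HCM effect between Rescue and WT at 72 h, and turned -0.12 for S100a4 (the difference of the HCM effect between PKP4-KO and WT at 72 h). RLE size factors gave 0 (from 1) for Rescue against WT at 24 h LCM, and the stricter filter of 10 counts in every library 0 (from 1) for Rescue against WT at 24 h LCM.

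Replicate numbers were tried as a pairing. Same-numbered libraries deviated together with a median correlation of -0.0487 (-0.66 to 0.723), 21 of 72 over 0.1. In 2 of 24 comparisons all 3 pairs were over 0.1, HCM against LCM in WT at 24 h (0.485, 0.355 and 0.351) and Rescue against PKP4-KO at 72 h LCM (0.304, 0.723 and 0.386), and the replicate block left their counts at 1 and 0. In the rest the libraries share only a number. The replicate block gave 0 (from 1) for Rescue against WT at 24 h LCM, 1 (from 2) for the difference of the HCM effect between Rescue and WT at 72 h, and turned 0.15 for the log2 fold change of S100a11, PKP4-KO against WT at 24 h LCM and -0.00556 for the log2 fold change of S100a9, Rescue against PKP4-KO at 24 h LCM.

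Leaving out 1 library at a time, the counts ran from 4 to 7 (all libraries 4) for 72 h against 24 h in PKP4-KO in HCM, from 1 to 4 (all libraries 2) for 72 h against 24 h in PKP4-KO in LCM, from 0 to 0 (all libraries 1) for 72 h against 24 h in Rescue in HCM, from 1 to 2 (all libraries 2) for 72 h against 24 h in Rescue in LCM, from 1 to 3 (all libraries 1) for 72 h against 24 h in WT in HCM, from 0 to 1 (all libraries 1) for 72 h against 24 h in WT in LCM, from 0 to 1 (all libraries 1) for the difference of the HCM effect between PKP4-KO and WT at 24 h, from 0 to 0 (all libraries 0) for the difference of the HCM effect between PKP4-KO and WT at 72 h, from 0 to 0 (all libraries 0) for the difference of the HCM effect between Rescue and WT at 24 h, from 1 to 7 (all libraries 2) for the difference of the HCM effect between Rescue and WT at 72 h, from 0 to 0 (all libraries 0) for HCM against LCM in PKP4-KO at 24 h, from 2 to 6 (all libraries 4) for HCM against LCM in PKP4-KO at 72 h, from 1 to 1 (all libraries 1) for HCM against LCM in Rescue at 24 h, from 0 to 0 (all libraries 0) for HCM against LCM in Rescue at 72 h, from 1 to 2 (all libraries 1) for HCM against LCM in WT at 24 h, from 1 to 4 (all libraries 4) for HCM against LCM in WT at 72 h, from 1 to 2 (all libraries 1) for PKP4-KO against WT at 24 h HCM, from 0 to 2 (all libraries 1) for PKP4-KO against WT at 24 h LCM, from 2 to 4 (all libraries 2) for PKP4-KO against WT at 72 h HCM, from 1 to 2 (all libraries 2) for PKP4-KO against WT at 72 h LCM, from 1 to 2 (all libraries 1) for Rescue against PKP4-KO at 24 h HCM, from 0 to 1 (all libraries 0) for Rescue against PKP4-KO at 24 h LCM, from 6 to 7 (all libraries 8) for Rescue against PKP4-KO at 72 h HCM, from 0 to 1 (all libraries 0) for Rescue against PKP4-KO at 72 h LCM, from 0 to 1 (all libraries 1) for Rescue against WT at 24 h HCM, from 0 to 1 (all libraries 1) for Rescue against WT at 24 h LCM, from 2 to 5 (all libraries 5) for Rescue against WT at 72 h HCM, from 1 to 2 (all libraries 2) for Rescue against WT at 72 h LCM.

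It turned the sign of 36 single values. Their ranges were -0.72 to 2.64 for S100a8 (PKP4-KO against WT at 24 h HCM), -1.17 to 0.89 for S100a8 (Rescue against PKP4-KO at 24 h HCM), -0.65 to 0.80 for S100a11 (Rescue against PKP4-KO at 24 h HCM), -0.90 to 0.74 for S100a6 (PKP4-KO against WT at 24 h LCM), -0.91 to 0.21 for S100a11 (PKP4-KO against WT at 24 h LCM), -0.47 to 1.51 for S100a9 (Rescue against PKP4-KO at 24 h LCM), -0.24 to 1.38 for S100a6 (PKP4-KO against WT at 72 h HCM), -0.31 to 0.069 for S100a10 (PKP4-KO against WT at 72 h HCM), -0.69 to 0.64 for S100a11 (PKP4-KO against WT at 72 h HCM), -0.49 to 7.06 for S100a4 (the difference of the HCM effect between PKP4-KO and WT at 72 h), -0.84 to 0.97 for S100a6 (PKP4-KO against WT at 72 h LCM), -0.85 to 0.62 for S100a11 (PKP4-KO against WT at 72 h LCM), -0.28 to 1.92 for S100a8 (Rescue against WT at 24 h HCM), -0.19 to 1.03 for S100a8 (HCM against LCM in Rescue at 24 h), -0.49 to 1.11 for S100a8 (Rescue against WT at 72 h HCM), -1.08 to 1.28 for S100a8 (HCM against LCM in Rescue at 72 h), -0.57 to 1.34 for S100a9 (HCM against LCM in Rescue at 72 h), -0.98 to 1.57 for S100a6 (Rescue against WT at 72 h LCM), -0.49 to 2.31 for S100a6 (72 h against 24 h in WT in HCM), -0.015 to 1.39 for S100a14 (72 h against 24 h in WT in HCM). The causes of these changes were not tested.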
